A study of Caenorhabditis elegans with 2 samples.

Results

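Genes for small nucleolar RNAs (snoRNAs) that do not lie inside a protein-coding gene of their own strand numbered 163 of the 346 snoRNA genes on the 6 nuclear chromosomes of Caenorhabditis elegans. They were taken from Ensembl release 115 by a rule on position alone: a gene counted when its span was not fully contained in a protein-coding gene on the same strand. Of the 163, 124 lay between protein-coding genes, 33 lay fully inside a protein-coding gene on the opposite strand, and 6 overlapped a protein-coding gene in part. The other 183 snoRNA genes lay inside a same-strand host. Each gene was described by the strongest peak whose summit, the position of highest signal, fell within 250 bp of its span.

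The peaks came from chromatin immunoprecipitation with sequencing (ChIP-seq) of F57A8.1, a protein that RefSeq names TSSC4. Whole animals of strain OP757 were used, which carry the mutation unc-119(tm4063) and an inserted transgene, wgls757, that holds F57A8.1::TY1::EGFP::3xFLAG together with a working unc-119 copy, and chromatin was precipitated with an antibody to GFP. The labels place both samples in 1 group, with pooled sexes and young adults of 65 hours after synchronisation as starved L1 larvae, and number them biological replicates 1 and 2. Both replicates carry the transgene, which adds a tagged copy of the gene, and tissues were not separated. There was no second condition and no untagged strain among the samples analysed, so the values below describe positions and are not compared across treatments.

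snoRNAs guide the chemical modification of ribosomal and other RNAs in the nucleolus. Those with C and D boxes direct methylation of ribose and those with H and ACA boxes direct the conversion of uridine to pseudouridine. Many animal snoRNAs are cut out of the introns of host genes, while others are transcribed from promoters of their own, either by RNA polymerase II or by RNA polymerase III. tRNA genes are read by RNA polymerase III from an A box and a B box inside the gene, and that polymerase stops at a run of T.

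The upstream sequences of 7 members with a thresholded peak are shown first, picked from the 11 that held both of those tRNA-like elements. Those not shown were T19B4.8, T02E1.9, ZK484.9 and Y39G10AR.24, whose elements started 45, 40, 37 and 63 bases apart. Among the 12 members with the highest signal, 5 held both and 7 did not. Each is written 5′ to 3′ on the strand of the snoRNA gene, from 100 bases before its 5′ end to 10 bases inside it, in WBcel235 coordinates. Capitals mark letters like the core of an A box (TGG, any 3 bases, A, any 3 bases, G) and TTCNANNC, like the core of a B box, where both meet the spacing given with the counts. Where the A-box-like letters met it more than once, the copy farthest upstream is marked and measured, and other matches stay in lower case. For W03C9.9 the sequence runs on to 10 bases past the gene, and capitals also mark TGATGA at the start of the RNA and CTGA near its end, the C and D boxes, and the TTTT that follows.
T03F7.8 (chrV:11314158-11314267, + strand): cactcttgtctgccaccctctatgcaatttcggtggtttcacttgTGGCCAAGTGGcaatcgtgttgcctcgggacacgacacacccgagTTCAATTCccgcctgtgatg
W03C9.9 (chrII:11960798-11960969, + strand): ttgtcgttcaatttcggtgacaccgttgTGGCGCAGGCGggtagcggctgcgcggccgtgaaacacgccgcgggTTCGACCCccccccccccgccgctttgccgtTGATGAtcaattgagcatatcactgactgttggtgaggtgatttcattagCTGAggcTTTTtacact
F32E10.10 (chrIV:7574022-7574131, + strand): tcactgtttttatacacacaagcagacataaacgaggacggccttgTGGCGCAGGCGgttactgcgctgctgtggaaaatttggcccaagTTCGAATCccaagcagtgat
C41C4.11 (chrII:8107261-8107370, - strand): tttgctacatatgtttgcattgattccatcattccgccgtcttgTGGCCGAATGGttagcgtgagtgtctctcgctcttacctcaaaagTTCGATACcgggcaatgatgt
Y75B12B.12 (chrV:15191084-15191193, - strand): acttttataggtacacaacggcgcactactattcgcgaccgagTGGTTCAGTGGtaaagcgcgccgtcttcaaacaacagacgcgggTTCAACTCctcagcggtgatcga
F30H5.4 (chrIII:502704-502813, + strand): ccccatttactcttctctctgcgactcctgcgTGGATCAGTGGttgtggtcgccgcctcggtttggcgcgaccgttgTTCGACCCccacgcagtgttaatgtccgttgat
C04G6.12 (chrII:5105222-5105331, - strand): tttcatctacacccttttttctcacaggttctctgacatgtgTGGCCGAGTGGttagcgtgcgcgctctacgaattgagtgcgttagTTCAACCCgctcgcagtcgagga

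A further 6 sequences are shown because they mark the limits of that pattern, and in those without the pair a single element is in capitals. B0334.12 is read on the strand opposite to the gene, from 100 bases past its 3′ end to 10 bases inside it. W01C9.6 and T06C12.16 had the A-box-like letters alone, C53B7.8 the B-box-like letters alone and T26A8.6 neither, each with a thresholded peak. H04D03.5 held both, with a further A-box-like match closer to the gene, and had no summit of the pooled list within 250 bp.
B0334.12 opposite strand (chrII:11484743-11484852, - strand): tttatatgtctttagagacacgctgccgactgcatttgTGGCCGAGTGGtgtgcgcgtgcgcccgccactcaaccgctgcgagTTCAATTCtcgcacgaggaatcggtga
W01C9.6 (chrII:8547109-8547218, + strand): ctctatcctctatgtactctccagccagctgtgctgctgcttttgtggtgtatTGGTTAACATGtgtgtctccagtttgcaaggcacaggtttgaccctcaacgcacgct
T06C12.16 (chrV:15873917-15874026, - strand): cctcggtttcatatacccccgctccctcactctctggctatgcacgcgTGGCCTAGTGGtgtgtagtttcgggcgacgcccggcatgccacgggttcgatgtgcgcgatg
C53B7.8 (chrX:6867838-6867947, + strand): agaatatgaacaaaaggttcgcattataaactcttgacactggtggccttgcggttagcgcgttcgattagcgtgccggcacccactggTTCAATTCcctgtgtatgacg
T26A8.6 (chrIV:8428730-8428839, - strand): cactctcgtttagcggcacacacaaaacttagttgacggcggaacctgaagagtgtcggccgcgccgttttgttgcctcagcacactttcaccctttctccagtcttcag
H04D03.5 (chrIII:10432243-10432352, + strand): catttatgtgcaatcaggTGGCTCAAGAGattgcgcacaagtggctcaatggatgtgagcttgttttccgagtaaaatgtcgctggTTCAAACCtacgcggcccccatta

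Peaks of the tagged protein were found at many of these genes and stood among the highest in the genome. In the pooled list of 30000 peaks, called on both replicates together, 84 of the 163 members had a summit within 250 bp (51.5%, 95% Wilson interval 43.9 to 59.1%). Over tiles of the genome of 634 bp, the width searched at a member of median length, the share was 18.0%. In the thresholded list of 295 peaks, which the authors filtered for reproducibility, 24 members had a peak (14.7%, interval 10.1 to 21.0%), against 0.186% of tiles. Summits in the separate lists of both replicates were found at 61 members (37.4%, interval 30.4 to 45.1%), against 6.79% of tiles. These intervals cover counting error only, and genes are not replicates.

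The separate replicates gave like counts, 81 members in replicate 1 and 77 in replicate 2. A summit in replicate 1 alone was found at 20 members and in replicate 2 alone at 16. For 60 members (36.8%) no list held a summit, and 19 more had one in a replicate but not in the pooled list. No pooled peak was the best peak of more than 1 member.

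The shares overlapped, within the counting intervals, those of the snoRNA genes inside hosts. Of the 183 snoRNA genes inside a same-strand host, 47.5% had a pooled summit (interval 40.4 to 54.8%), 10.9% a thresholded peak (interval 7.19 to 16.3%) and 37.2% a summit in both replicates. Measured from the 5′ end alone, 45.4% of members and 17.7% of the 19973 protein-coding genes had a pooled summit within 250 bp. The thresholded shares by the same measure were 14.7% of members and 0.25% of protein-coding genes. Of 612 tRNA genes, 77.5% had a pooled summit (interval 74.0 to 80.6%) and 16.3% a thresholded peak, so members had pooled summits less often than tRNA genes by intervals that do not overlap, while the thresholded shares overlapped.

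**Figure D1:**
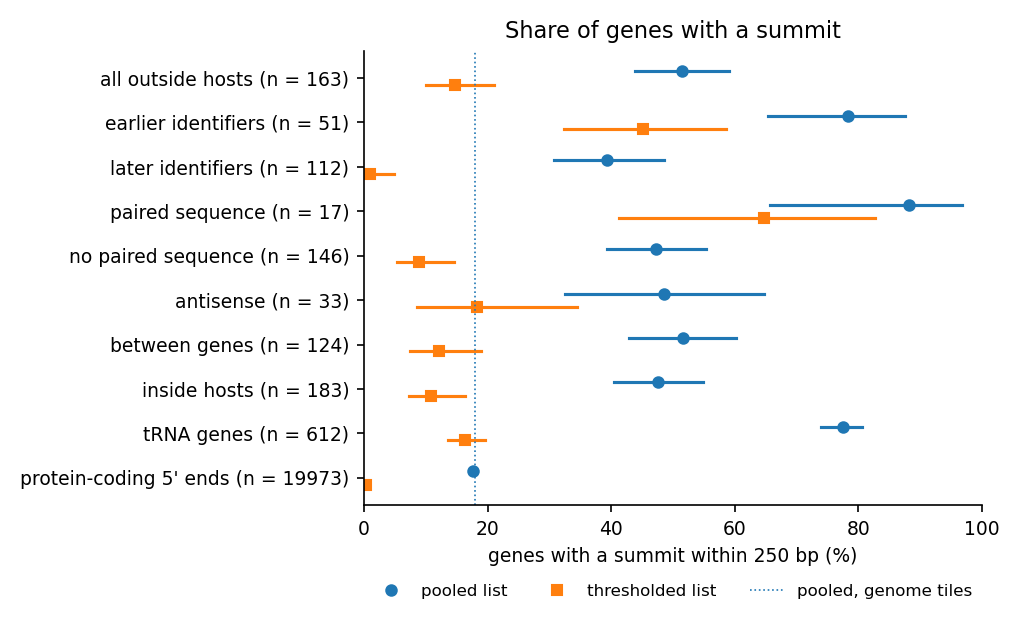
Share of genes with a summit within 250 bp, in percent, for the pooled list (circles) and the thresholded list (squares), with 95% Wilson intervals as bars and the pooled share of genome tiles as a dotted line. Members lay at 51.5% and 14.7%, near the snoRNA genes inside hosts, and the members with earlier identifiers or with the paired sequence upstream lay higher in both lists. Both of these groupings were made after the peaks had been seen, so their bars test nothing.

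Signal is the authors' enrichment value of each peak, without a stated scale, and is used here for order within a list. Over the 84 members with a pooled summit the median signal was 60.8 (quartiles 39.6 and 108), against 34.9 over all 30000 pooled peaks and 59.7 over the hosted snoRNA genes with a summit. The 24 members with a thresholded peak had signals from 96.1 to 408, with a median of 148, against 105 over all 295 thresholded peaks. Members accounted for 9 of the 25 highest pooled peaks (5.52% of members). Of the hosted snoRNA genes, 5 (2.73%) had their best peak among the same 25, with C51F7.3 and C51F7.4 sharing 1 peak. The highest hosted signal was 571, above that of every member.

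The strongest member was T03F7.8 (chrV:11314258-11314332), which lies on the strand opposite to cutl-18, inside that gene. Its signal was 188 in replicate 1 and 212 in replicate 2, and 408 in the pooled list, and it had rank 3 in each of these lists. The pooled summit was 56 bp upstream of its 5′ end, next to the A-box-like letters in the sequence shown above. In the separate replicates the summits were 62 and 56 bp upstream.

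W03C9.9 (chrII:11960898-11960959), a snoRNA gene with C and D boxes between protein-coding genes, came next among members. Its signal was 144 in replicate 1 and 211 in replicate 2, with a pooled signal of 349 (rank 5). The summit lay 54 bp upstream, between the A-box-like and B-box-like letters.

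B0334.12 (chrII:11484683-11484752), antisense inside twk-5, had a signal of 108 in replicate 1 and 153 in replicate 2, and 270 in the pooled list (rank 6). Among the 24 it was the only one whose summit lay past the 3′ end, by 83 bp. Read on the opposite strand, the flank under that summit held the A-box-like letters 62 bases and the B-box-like letters 17 bases before the end of the annotated gene. A TTTT lay within 20 bases of the other end on that strand. Across the 163 members it was the only one with the paired letters in this reversed arrangement. ChIP-seq reads do not carry the strand of a transcript, so the strand these peaks belong to was not measured here.

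The next members were ZK265.10 (chrI:8259437-8259498), with signals of 132 and 123 in replicates 1 and 2, and W01C9.6 (chrII:8547209-8547338), with 129 and 105. Their pooled signals were 258 (rank 7) and 237 (rank 8). W01C9.6 ended in an ACA and overlapped a protein-coding gene in part, and its summit lay farthest upstream of the 24, at 64 bp. Y23H5B.10 (chrI:2514168-2514311) and T19B4.8 (chrI:5707046-5707119) had 98.1 and 89.3 in replicate 1 and 125 and 123 in replicate 2. These gave pooled signals of 227 (rank 9) and 219 (rank 12).

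All of the members from T03F7.8 to T19B4.8 ranked within the 25 highest peaks of each replicate. F32E10.10 (chrIV:7574122-7574191), with C and D boxes, did so too, with signals of 97.5 and 115 and a pooled signal of 206 (rank 14). C41C4.11 (chrII:8107196-8107270) followed at 171 (rank 25), with 78.0 in replicate 1 and 96.0 in replicate 2.

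T06C12.16 (chrV:15873855-15873926) had a pooled signal of 163 (rank 30) and was the member of these 12 for which replicate 1 ranked far above replicate 2. It ranked 14 in replicate 1 with a signal of 93.0 and 151 in replicate 2 with 63.1. C53B7.8 (chrX:6867938-6868008), the only thresholded member on the X chromosome, was the reverse, with 54.9 (rank 109) and 103 (rank 27) and a pooled signal of 153. F59C6.15 (chrI:10516978-10517150) had 62.9 and 97.3, with a pooled signal of 149 (rank 38). The 12 other thresholded members ranked 42 to 198 in the pooled list, with T27A3.9 the lowest at 96.1.

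**Figure D2:**
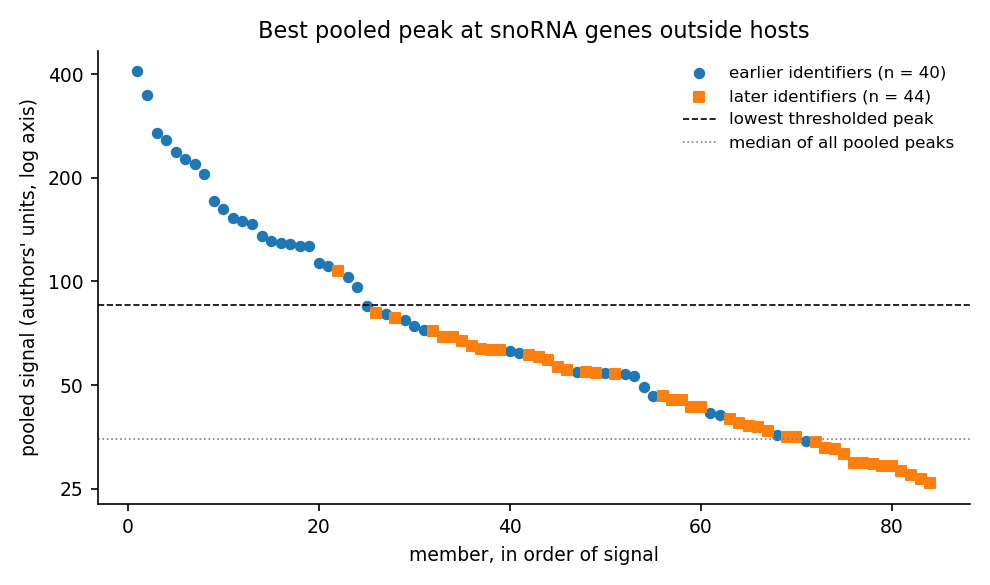
Signal of the best pooled peak (log axis, authors' units) at the 84 members with a pooled summit, in descending order, split by WormBase identifier number. The highest 21 members all have earlier identifiers, and most members near the list median of 34.9 have later ones.

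The thresholded list was derived from both replicates, so the ranks of its members in each describe that choice. Of the 24 members with a thresholded peak, 18 were among the 295 highest peaks of replicate 1 and 23 among those of replicate 2. Spearman's rho between the signals of the replicates was 0.64 over the 61 members with a summit in both. It was 0.64 over the 24 with a thresholded peak and -0.07 over the 37 without one. The 24 and the 37 were split by the pooled signal of these same replicates, which bounds the signals in each group. The gap between 0.64 and -0.07 therefore describes that split, and nothing about the genes was tested by it. These values describe points that share their 2 libraries.

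The thresholded members on which the replicates differed most were T27A3.9 and ZK643.9. T27A3.9 (chrI:6105679-6105754), with C and D boxes, had a signal of 22.7 in replicate 1 (rank 8222) and 79.0 in replicate 2 (rank 74). ZK643.9 (chrIII:8937767-8937897), which ends in an ACA, had 31.0 (rank 1902) and 90.7 (rank 46). For both, the thresholded call came with a high rank in replicate 2 alone.

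Smaller differences were seen at Y39G10AR.24 (36.6, rank 761, and 70.7, rank 109) and at C27H5.9 (36.9, rank 719, and 75.7, rank 86). T04A8.17 (chrIII:4689634-4689771) differed the other way, with 69.9 (rank 43) in replicate 1 and 58.5 (rank 219) in replicate 2. The only member with a curated name, smy-3 (chrV:14092572-14092651), had no thresholded peak. It had a pooled signal of 72.0 (rank 601), which rested mainly on replicate 1, with 45.4 (rank 229) against 20.7 (rank 17591) in replicate 2.

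**Figure D3:**
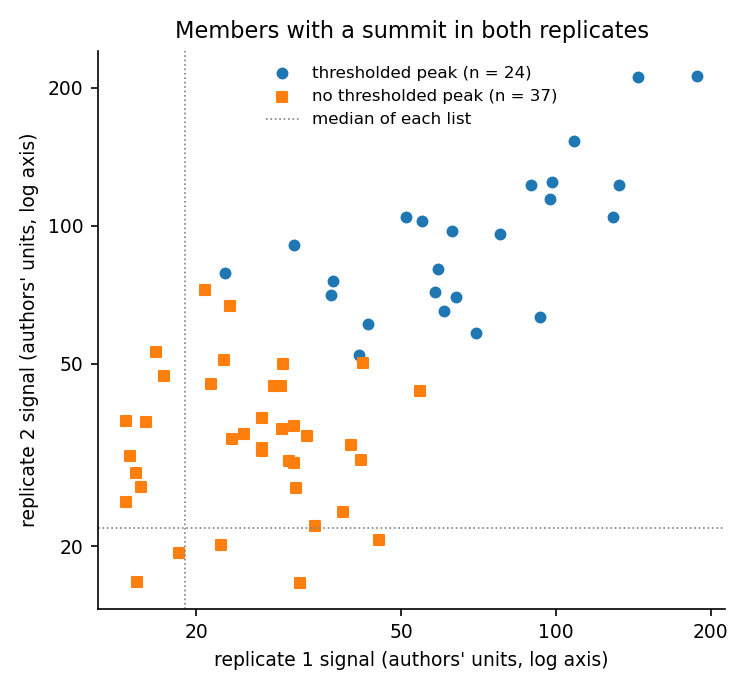
Signal in replicate 1 (x axis) against replicate 2 (y axis), both on log axes in the authors' units, for the 61 members with a summit in both lists. Thresholded members (circles, n = 24) lie toward high signal in both, and the other 37 (squares) lie lower, most of them above the list medians of 19.0 and 21.9 (dotted lines).

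Summits of the strong peaks lay just before the snoRNA genes. Over the 24 thresholded members the median summit position was -37 bp from the 5′ end, with negative values upstream, and the quartiles were -53.2 and -8.25 bp. Of these summits 19 lay within 100 bp upstream, 16 of them between 20 and 70 bp upstream, 4 inside the gene and 1 past its 3′ end. At all 24, the summits of both replicates were within 100 bp of the pooled summit, in a list that was itself filtered for reproducibility.

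The 60 members with a pooled but no thresholded peak did not share that position. Their median was 13.5 bp past the 5′ end, with quartiles of -89.5 and 134 bp, and 15 of 60 lay within 100 bp upstream. The summits of both replicates were within 100 bp of the pooled one for 20 of the 60. The window of 250 bp bounds all of these positions. Among thresholded hosted snoRNA genes, 11 of 20 summits lay within 100 bp upstream.

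Members close to the limit of 250 bp ranked from 887 to 28229 in the pooled list. Just inside were K02C4.7, with a summit at 222 bp from the span and rank 5221, C34E11.20 at 228 bp with rank 887, and R166.10 at 246 bp with rank 28229. Just outside were C17H12.36 at 268 bp with rank 14362, T13E5.1 at 279 bp with rank 24708, and F32B5.17 at 287 bp with rank 4126. None of the 6 had a thresholded peak.

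**Figure D4:**
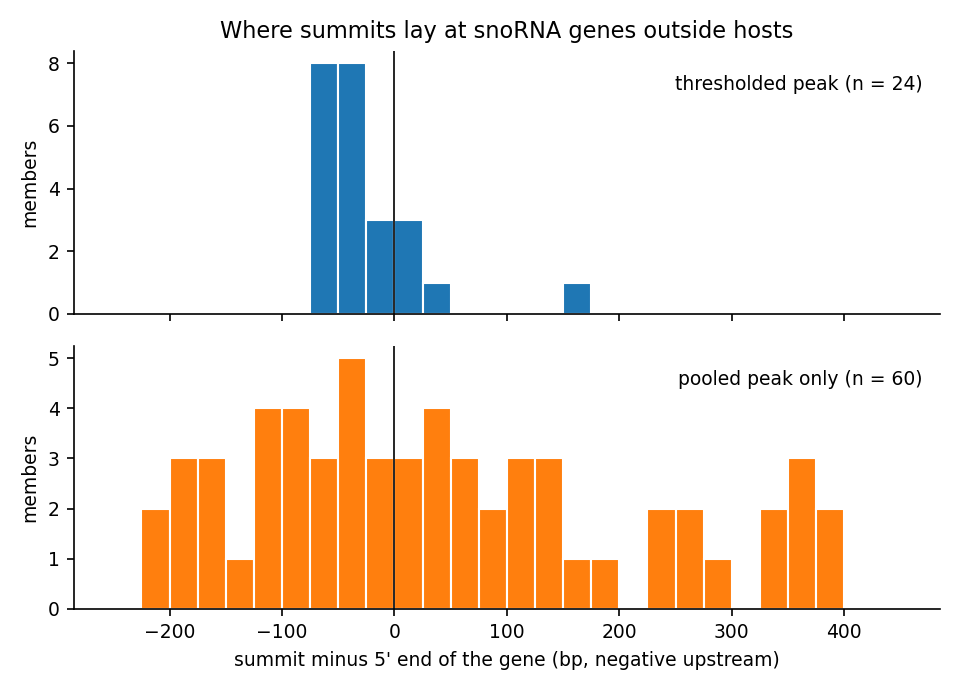
Number of members by position of the pooled summit relative to the 5′ end of the gene (bp, negative upstream, bins of 25 bp), for the 24 members with a thresholded peak (top) and the 60 with a pooled peak only (bottom). Of the thresholded summits 19 lie within 100 bp upstream, 4 inside the gene and 1, that of B0334.12, past it at 152 bp, and the other members' summits spread over the whole window.

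Both tRNA-like elements were present upstream of 11 of the 24 thresholded members. The search asked for the A-box-like letters followed 25 to 80 bases later, start to start, by the B-box-like letters, on the strand of the gene, from 120 bases before to 10 bases after its 5′ end. These letters and limits were chosen after the upstream sequences of members with peaks had been read, so the counts describe the sequences and test nothing. The pair was found at 17 of the 163 members (10.4%), at 4 of the 60 with a pooled peak only and at 2 of the 79 with no pooled summit. It was found before 12 of the 183 hosted snoRNA genes (6.56%), 51 of 19973 protein-coding genes (0.255%) and 5 of 261 miRNA precursors, and in 3584 of 771325 tiles of 130 bases read on 1 strand (0.465%). Inside the tRNA genes themselves, 370 of 612 (60.5%) held it.

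Read from the side of the sequence, 15 of the 17 members with the pair had a pooled summit and 11 a thresholded peak (64.7%, interval 41.3 to 82.7%). The same 15 had a summit in each replicate. Of the 146 members without the pair, 69 had a pooled summit and 13 a thresholded peak (8.9%, interval 5.28 to 14.6%). Among hosted snoRNA genes with the pair, 6 of 12 had a thresholded peak. The letters were chosen from sequences of members with peaks, so the members' shares and intervals describe that choice and test nothing.

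The arrangement among the 11 is bounded by the limits of the search, which were set after such sequences had been read. The A-box-like letters started 46 to 76 bases upstream (median -57) and the B-box-like letters 9 to 26 bases upstream (median -13). The spacing had a median of 45 bases, between 37 and 63, where the 63 was at Y39G10AR.24, which also held a nearer A-box-like match at 46 bases, and the pooled summit lay a median of 22 bases past the start of the A-box-like letters. At C04G6.12 (chrII:5105157-5105231), antisense inside mpk-2, the summits of the pooled list and of both replicates all fell on the first base of the annotated gene. At Y75B12B.12 and ZK484.9 the pooled summit fell inside the gene, 33 and 20 bp past its 5′ end.

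**Figure D5:**
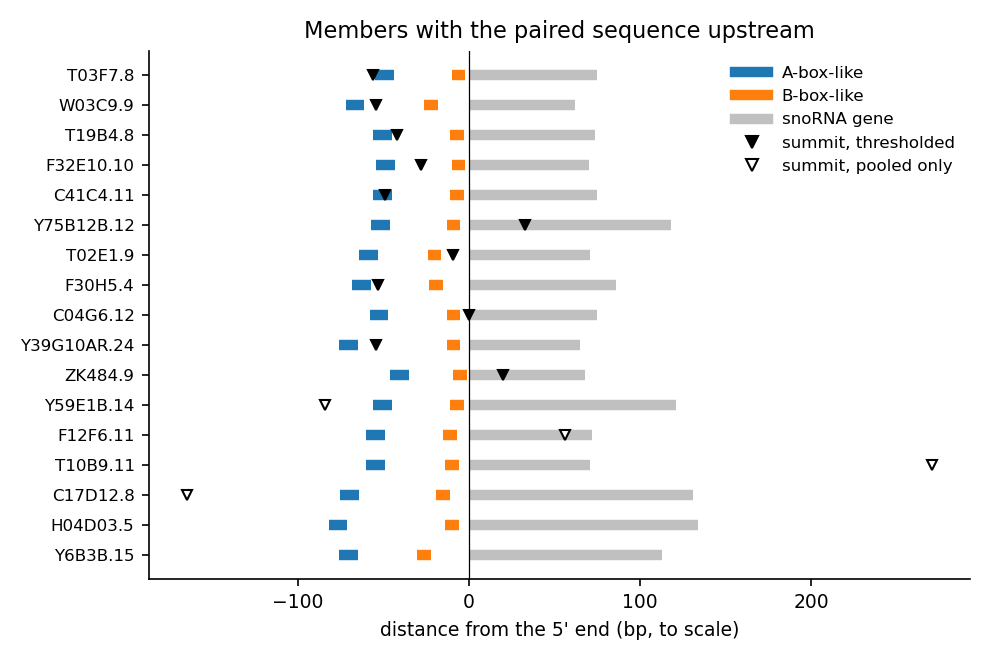
Map, to scale, of the 17 members with the paired sequence upstream, ordered by pooled rank, with distance from the 5′ end in bp on the x axis. Triangles mark the pooled summit (filled where thresholded, open where pooled only), and the 11 filled ones lie from just before the A-box-like letters to inside the gene.

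Each element was also counted by itself over all 24 thresholded members, and these counts include the members with the pair. Either element alone or both was found at 19 of the 24, the A-box-like letters at 16 and the B-box-like letters at 14. Either or both was found at 16 of the 60 members with a pooled peak only and at 22 of the 79 with no pooled summit. Members without a pooled summit held the A-box-like letters at 6 of 79 and the B-box-like letters at 18 of 79, and protein-coding genes at 4.42% and 18.7%, so the B-box-like letters alone are common. A run of TTTT within 20 bases after the 3′ end was present at 18 of the 24 thresholded members (75.0%), at 24 of the 60 with a pooled peak only, and at 25 of the 79 with none. It followed 42.6% of hosted snoRNA genes and 40.3% of protein-coding genes.

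A set of 4 shorter sequences was searched on both strands of the 100 bases upstream, where GTTCGA overlaps the B-box-like letters. GAACCC reads GGGTTC on the other strand and can overlap those letters too, as at W03C9.9, so its counts are not separate from theirs. GTTCGA was found at 8 of the 24 thresholded members (33.3%), 4 of the 60 with a pooled peak only, 1 of the 79 with none, and 2.96% of protein-coding genes. GAACCC was at 6, 12 and 9 of these groups of members and at 1.13% of protein-coding genes. AGAGCG was at 3 and ACGCAG at 2 of the 24, against 2.15% and 2.79% of protein-coding genes. Those last 3 had been seen under peaks of these data, and support nothing here.

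Among members, upstream GC content was higher at those with peaks. The 100 bases upstream had a median GC content of 54% at the thresholded members, 50% at those with a pooled peak only, and 41% at those with no pooled summit. Hosted snoRNA genes had 42%, although 47.5% of them had a pooled summit, against 51.5% of members. The part of GC content in the counts of peaks was not tested.

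The type of snoRNA could be read from the sequence for 39 members. By TGANGA in the first 20 bases and CNGA in the last 15, 21 members had C and D boxes, and by an ACA that ended 2 to 4 bases before the 3′ end, 18 had that box. The remaining 124 had neither by these rules, which were tightened after a looser first reading. Read on the wrong strand, 1 member passed the first rule and 10 the second, so the ACA rule separates less well. Of the members with C and D boxes, 9 of 21 had a thresholded peak (42.9%, interval 24.5 to 63.5%) and 16 a pooled summit. Of those with ACA, 3 of 18 had a thresholded peak (interval 5.84 to 39.2%) and 11 a pooled summit, and of those with neither, 12 of 124 and 57. The interval for the members with neither was 5.62 to 16.2%, which overlaps that of the ACA members and not that of the members with C and D boxes. The box classes also differ in length and identifier number. These are given next, with the thresholded counts among members with earlier identifiers. Among those members alone, the thresholded shares of the classes lay close together. The part of length and identifier number in the counts was not tested.

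Annotation history also separated the members, and length differed with it. Peaks were not counted by length, and the thresholded members ran from 62 to 173 bp, with a median of 74.5 bp. WormBase identifiers hold a running number, and the members' numbers leave a gap between 45378 and 77461. A split there, made after the values were seen, put 51 members before the gap and 112 after it. The earlier 51 had a median length of 78 bp and the later 112 a median of 156 bp. Thresholded peaks were found at 23 of the earlier (45.1%, interval 32.3 to 58.6%) and at 1 of the later (0.893%, interval 0.158 to 4.88%), which was T26A8.6.

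Pooled summits followed the same split, at 40 of 51 and 44 of 112, with median signals of 112 and 44.1. Summits in both replicates were found at 36 and 25. C and D boxes were read in 19 of the earlier and 2 of the later members, ACA in 7 and 11, and neither type of box in 25 and 99. T26A8.6, the 1 thresholded member with a later identifier, had neither box. The 9 thresholded members with C and D boxes were therefore all among the earlier 19, and the 3 with ACA all among the earlier 7. The 12 with neither, T26A8.6 aside, were among the earlier 25. The thresholded shares of the earlier 19, 7 and 25 therefore lay close together. Upstream GC content had medians of 54% and 43%. Among hosted snoRNA genes the thresholded counts were 15 of 82 and 5 of 101. With the earlier identifiers alone, 11 of 14 members with the paired sequence and 12 of 37 without it had a thresholded peak. The letters of that pair were chosen after sequences of members with peaks had been read, so these counts test nothing.

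By position relative to protein-coding genes, the intervals overlapped. Thresholded peaks were at 15 of 124 members between genes (12.1%, interval 7.47 to 19.0%), 6 of 33 antisense members (18.2%, interval 8.61 to 34.4%) and 3 of 6 that overlapped a gene in part. The antisense ones were T03F7.8, B0334.12, T04A8.17 in ppat-1 at 128, C04G6.12 in mpk-2 at 127, ZK484.9 in haf-9 at 111 and C27H5.9 in pdl-1 at 103. Of the 33 antisense members, 6 touched a coding gene's exon.

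The nearest protein-coding 5′ end was within 500 bp for 27 members, of which 4 had a thresholded peak (14.8%), against 20 of the 136 farther away (14.7%). The pooled shares were 66.7% (interval 47.8 to 81.4%) and 48.5% (interval 40.3 to 56.9%). By chromosome, thresholded members numbered 8 of 38 on I, 6 of 36 on II, 3 of 16 on III, 3 of 31 on IV, 3 of 19 on V and 1 of 23 on X. Another short RNA gene lay within 500 bp of 10 members, of which C27H5.9 had a thresholded peak.

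Some members are near-identical copies of each other at different places. The treatment of reads that align to several copies was not stated per the file headers, so values at these genes are uncertain. F59C6.15, with a pooled signal of 149, was 97.1% identical over its length to Y67A10A.14, which had 74.1, and 94.9% identical to F25H2.15, which had 54.2. In all of these 3 the pooled summit lay upstream, by 59, 48 and 48 bp. Another member of the group, F43A11.8, had no pooled summit and was 87.9% identical to F59C6.15.

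Signals in other pairs of copies are given side by side. A pair on IV, 95.5% identical, had no summit in any list at either copy. C53B7.8 on X and C46C2.8 on IV were 94.5% identical, with signals of 153 and 62.0, and summits 34 and 54 bp upstream. ZK643.9 on III and K09E9.5 on X were 94.7% identical, with 127 and 35.8. T26A8.6 and T08B6.64, both on IV, were 85.7% identical, with 107 and 53.8.

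The protein genes of the snoRNA pathway were looked up beside the RNA genes. The list held 9 genes: fib-1, nol-56, nol-58 and snu-13, which encode proteins of the C and D box particles, dkc-1, nola-3, garr-1 and Y48A6B.3 of the H and ACA particles, and dao-5, a nucleolar protein. Within 250 bp of their 5′ ends 4 had a pooled summit and none a thresholded peak, where over all protein-coding 5′ ends the shares were 17.7% and 0.25%. With 9 genes, a thresholded count of 0 does not set them apart from other genes. Over the whole gene span, which is longer than that of a snoRNA gene, 8 had a pooled summit. The share over whole spans of all protein-coding genes was not counted. This count and the fib-1 peak given next therefore have no background here. A thresholded peak was found in fib-1, which encodes the methyltransferase fibrillarin, with a pooled signal of 90.6 (rank 235) and a summit 655 bp downstream of the 5′ end. The signal there was 33.6 (rank 1221) in replicate 1 and 58.9 (rank 210) in replicate 2.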

How the data were processed

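The samples were 2 biological replicates of 1 group, with no control group. The deposited files are 4 peak lists in ce11 coordinates: 1 for each replicate and 1 for both together, called against a control per the file headers, and a thresholded list derived from them. The signal of each peak and the −log10 q-value (at most 2.51) are the authors' own. Caller, aligner, scaling and treatment of repeated sequences: not given in the sources used here. The read depth is unknown. All 295 thresholded peaks have the coordinates of the 295 highest pooled peaks, so these lists are not independent.

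Genes came from Ensembl release 115 and sequences from the RefSeq assembly of WBcel235, the same sequence as ce11. Counts, medians and 95% Wilson intervals were computed with Python 3.11.15, pandas 2.3.3, NumPy 2.4.6 and SciPy 1.17.1, and the assignment of summits was tested on simulated data. With 1 group no comparison between samples and no p-value was possible. Members and lists were chosen with earlier results of these data known. Named genes are the 12 highest thresholded members, the 5 whose replicate ranks differed most, those next to the 250 bp limit, up to 5 antisense members with the highest signal and those with a curated name. Other members named, such as C27H5.9 among the antisense ones and the near-identical copies, were chosen after their values were seen.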

Additional observations from a re-analysis of the deposited data

How the results depend on the processing

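The numbers of members with a pooled summit (62 to 96), a thresholded peak (15 to 26) and a summit in both replicates (44 to 74) stayed within 1.5 times the reported value under every alternative run but 1: between-gene members alone gave 15 thresholded members in place of 24, from 124 members in place of 163. The alternatives were summits within 100 or 500 bp, overlap of the peak with the gene, the 10000 highest peaks, members without a neighbouring short RNA gene, between-gene members, each peak given to its nearest short RNA gene only, each replicate alone and a stricter threshold. The median signal was 70.4 within 100 bp and 72.0 in the 10000 highest peaks, where fewer weak peaks count, and 28.3 to 37.3 without 1 of the replicates, on those lists' own scales. The median position of all pooled summits, -14 bp, moved in every alternative run: -8 bp within 100 and within 500 bp, -28 bp by overlap, -10 bp in the 10000 highest peaks, -18 bp without neighbours and with nearest genes only, -23 bp between genes, and -11 to -10 bp without 1 of the replicates. Alternatives chosen after seeing the data gave 23 thresholded members with later identifiers left out, and 16 to 17 members with the paired sequence under other spacings, windows and letters. No paired analysis was possible because there is 1 group and no test. Unknown read depth limits what the absence of a summit means.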
